A study of Mus musculus with 24 samples.

Results

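The clustered protocadherin genes were followed across the cortex of 24 mice of 4 genotypes. They were taken as every row of the deposited count table whose name is a Pcdha, Pcdhb or Pcdhg symbol of the 3 clusters, which gave 58 of 24421 genes: 14 in the alpha cluster, 22 in the beta cluster and 22 in the gamma cluster. Filtering on low counts left 57 of them among the 16316 genes tested. Pcdhb1, with a mean of 0.0853 CPM (counts per 1000000), was the member not tested.

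All 24 mice, controls included, carried 5xFAD, a set of human transgenes driven by a neuronal promoter that leads to amyloid plaques. RNA was taken from cortex at 7.5 months, 1 library per mouse. Plcg2KO mice were homozygous for the Plcg2 knockout (4 males, 2 females), Trem2KO mice lacked Trem2 (3 males, 3 females), Plcg2HET mice were labelled heterozygous for the Plcg2 knockout (3 males, 3 females), and WT mice were wild type at both loci (3 males, 3 females). Plcg2 encodes a phospholipase that signals below immune receptors, among them TREM2, a receptor of microglia. The comparisons address how RNA levels in 5xFAD cortex differ with loss of either gene. Mice without 5xFAD were not analysed here.

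Clustered protocadherins are cadherin-like adhesion proteins of the cell surface, best known in neurons. Each neuron transcribes its own combination of them from alternative promoters, and the proteins bind like combinations on other membranes, which lets a neuron tell its own branches from those of other cells. The C-type members at the end of the alpha and gamma clusters are the exception, being transcribed more uniformly from cell to cell. Binding of CTCF and cohesin loops promoters to distant enhancers and takes part in the choice.

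Libraries held 36.3 to 83.0 M counts (units of 1000000), and all members together made up 0.0333% to 0.0841% of them. Plcg2 averaged 0.984 ± 0.159 CPM in Plcg2KO and 12.0 ± 4.98 CPM in the libraries labelled Plcg2HET, against 11.8 ± 3.14 CPM in WT (SD, n = 6 each). Plcg2 was thus not lower in the libraries labelled Plcg2HET than in WT (log2 fold change 0.021 ± 0.17 SE), and directions for that genotype rest on its label. Trem2 averaged 6.01 ± 1.21 CPM in Trem2KO against 82.5 ± 34.9 CPM in WT (SD, n = 6 each). Deviations of a library from the others followed the GC content of genes, as a Spearman correlation across genes, negatively in 6 of 6 Plcg2KO libraries and positively in 5 of 6 Trem2KO libraries. Among the libraries labelled Plcg2HET it was positive in 4 and negative in 2 (M3 and F2), and in WT positive in 2 and negative in 4. Rn45s, a ribosomal RNA precursor, exceeded 5% of counts in 3 libraries, with 29.0% in the one labelled Plcg2HET F3, 5.29% in the one labelled Plcg2HET F1 and 9.59% in WT F1.

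The 3 clusters lie in the order alpha, beta, gamma on the plus strand of chromosome 18 in the mouse build mm10, at chr18:36930285-37187660, chr18:37264998-37521419 and chr18:37661945-37841872. Their gene structures differ, and with them what a read count can hold. A beta gene is 1 exon of 2319 to 5270 bases, all of it its own. An alpha gene has 4 exons: a first exon of its own, which encodes the extracellular and membrane-spanning part, and constant exons of 2860 bases in all that every alpha gene shares and that encode the common cytoplasmic end. A gamma gene is built in the same way, with 2109 to 2118 shared bases. Own bases made up 45.1% to 47.3% of the exon length in 11 alpha genes and 52.8% to 58.3% in the 22 gamma genes.

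In the other 3 alpha genes, Pcdha4, Pcdha6 and Pcdha7, no base was their own. The annotation lists their first exons a second time in Gm37013, Gm38666 and Pcdha7-g, entries that join an alpha first exon to the gamma constant exons. The deposited table of expected counts, which are estimates that need not be whole numbers, held far more for them than the read counts did. Pcdha4 had a median of 680 expected counts per library against 21.5 read counts, Pcdha6 had 414 against 14.5, and Pcdha7 had 284 against 5.5. The joined entries themselves had median read counts of 0, 10.5 and 6. Read counts of Pcdha4, Pcdha6 and Pcdha7 are therefore too few to give their level. Pcdha8, which has its own first exon, was low in both tables, with a median of 59.9 expected counts and 21.5 read counts.

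Summed over all libraries, the expected counts of the other 11 alpha genes were 2.56 to 3.44 times their read counts, and those of gamma genes 1.80 to 2.19 times. For beta genes the ratio was 0.592 to 0.949, with a median of 0.904. The median over genes with at least 100 counts lay between 0.873 and 0.903 in every library, so the beta genes stood near the ratio of genes at large and the alpha and gamma genes well above it. The lowest beta values were those of Pcdhb8 at 0.592 and Pcdhb6 at 0.634. How the counting treated reads on shared exons is not stated in the sources used, so read counts of alpha and gamma genes may leave many of them out. Levels are given per kilobase (kb) of own exon where genes are compared.

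Levels per own kilobase spanned a wide range within each cluster. Pcdhgc5 was highest of all members with 49.4 CPM per own kb over the 24 libraries, followed by Pcdhgc3 with 27.1, both C-type. Pcdhga6 followed with 10.9, Pcdhga11 with 9.58 and Pcdhac2, also C-type, with 9.51. The other C-type members were far lower, Pcdhgc4 at 4.35 and Pcdhac1 at 1.09 CPM per own kb. In the beta cluster Pcdhb9 led with 5.92 and Pcdhb12 followed with 4.07. At the low end stood Pcdhgb8 with 0.318, Pcdha8 with 0.177 and Pcdhb1 with 0.0347 CPM per own kb. Among the 22 gamma genes the median level per own kb was 6.31 CPM in Plcg2KO, 7.29 in Trem2KO, 4.61 in the libraries labelled Plcg2HET and 4.06 in WT. The beta medians were 1.49, 1.40, 1.26 and 1.28 CPM per own kb in that order of genotypes, and the alpha medians over 11 genes were 1.33, 1.57, 1.25 and 1.05.

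**Figure D1:**
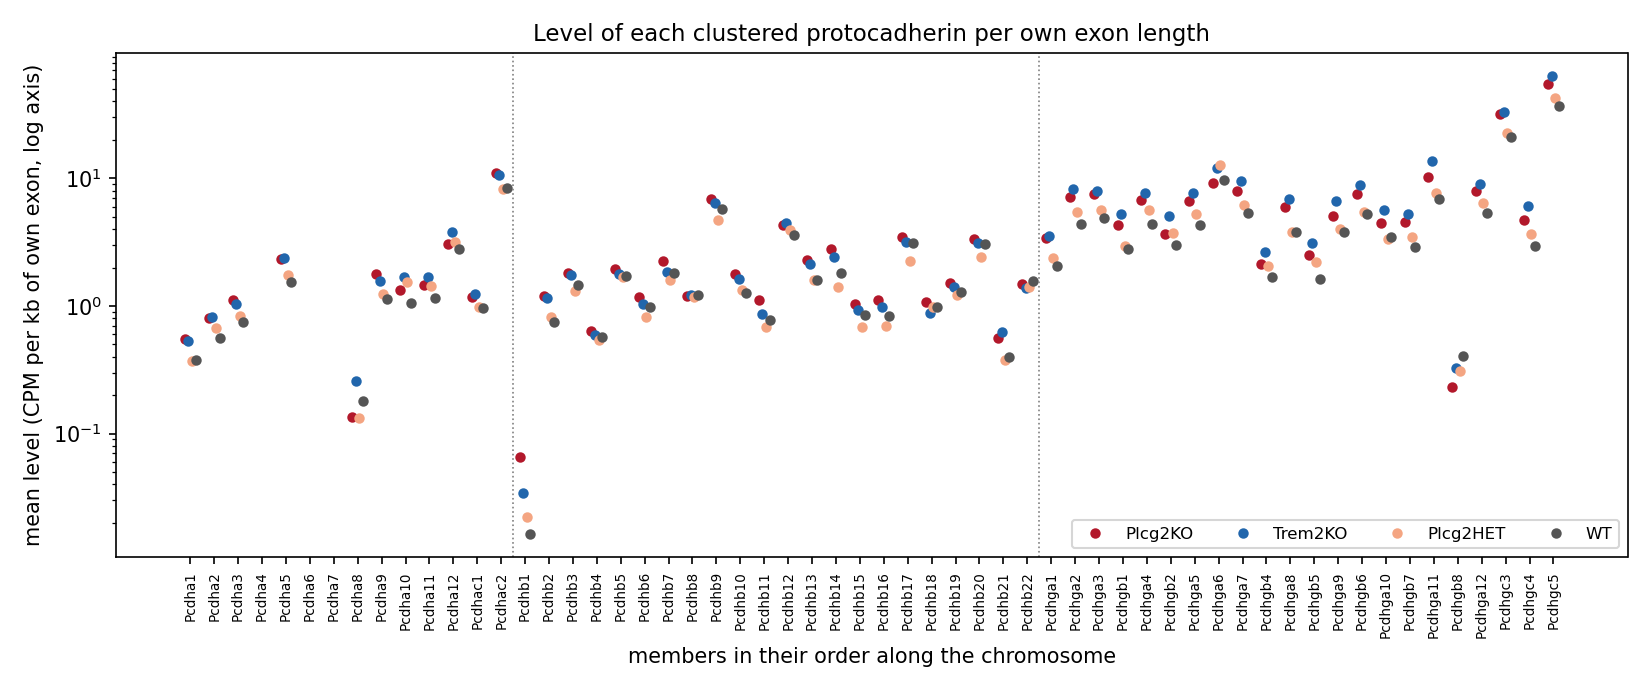
Mean level of each member by genotype, in CPM per kilobase of own exon on a log axis, with members in chromosome order and each dot the mean of 6 libraries. Pcdhgc5 and Pcdhgc3 lie highest in every genotype, Pcdhb1 lies lowest, and Pcdha4, Pcdha6 and Pcdha7 are missing because they have no exon base of their own.

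Within each cluster, the share of counts taken by the C-type genes was compared as a measure of its make-up. The 3 gamma C-type genes together took 46.6% ± 2.62 of gamma counts in Plcg2KO, 45.0% ± 0.788 in Trem2KO, 44.6% ± 1.92 in the libraries labelled Plcg2HET and 45.1% ± 1.51 in WT (SD, n = 6 each), with overlap between all genotypes. The 2 alpha C-type genes took 50.1% ± 4.08, 47.0% ± 1.39, 46.3% ± 2.55 and 50.4% ± 3.18 of alpha counts in the same order. The alpha shares of Trem2KO, 44.4% to 48.0%, lay just below the lowest WT share of 48.2%. Pcdhga6 took 4.39% ± 0.631 of gamma counts in Plcg2KO, 4.90% ± 0.481 in Trem2KO, 7.69% ± 1.78 in the libraries labelled Plcg2HET and 6.97% ± 1.69 in WT (SD, n = 6 each). The Plcg2KO range, 3.29% to 4.97%, lay below the WT range of 5.21% to 9.15%. Pcdhgb8, singled out here after its values were seen, took 0.114% ± 0.0447 in Plcg2KO, 0.138% ± 0.0281 in Trem2KO, 0.194% ± 0.0515 in the libraries labelled Plcg2HET and 0.304% ± 0.0988 in WT.

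Summed by cluster, mean read counts of each genotype differed from WT most in the gamma cluster. Between Plcg2KO and the libraries labelled Plcg2HET the beta ratio was larger, at 1.36 against 1.26 for gamma. Gamma sums averaged 507 ± 19.7 CPM in Plcg2KO, 593 ± 28.3 in Trem2KO, 402 ± 52.8 in the libraries labelled Plcg2HET and 351 ± 94.7 in WT (SD, n = 6 each). The 6 Trem2KO libraries, 550 to 624 CPM, all lay above the 6 WT libraries, 248 to 486 CPM, and above the 6 Plcg2KO libraries, 475 to 527 CPM. The Plcg2KO and WT ranges overlapped through 1 WT library, M1, at 486 CPM. WT libraries spread widest: M2, F1 and F3 held 248 to 288 CPM, and M1, M3 and F2 held 364 to 486 CPM. Beta sums averaged 144 ± 4.17, 133 ± 7.10, 106 ± 20.5 and 118 ± 17.3 CPM in Plcg2KO, Trem2KO, the libraries labelled Plcg2HET and WT (SD, n = 6 each). Alpha sums averaged 61.8 ± 4.88, 64.0 ± 5.60, 50.9 ± 11.4 and 47.3 ± 9.41 CPM in the same order. In these 2 clusters the ranges of every genotype overlapped that of WT. The libraries labelled Plcg2HET M3 and F2, the pair with a negative GC trend, had the highest alpha sums of their genotype (64.0 and 64.6 CPM) and the highest beta sums (124 and 138 CPM). Their gamma sums, 359 and 389 CPM, lay below the mean of their genotype.

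**Figure D2:**
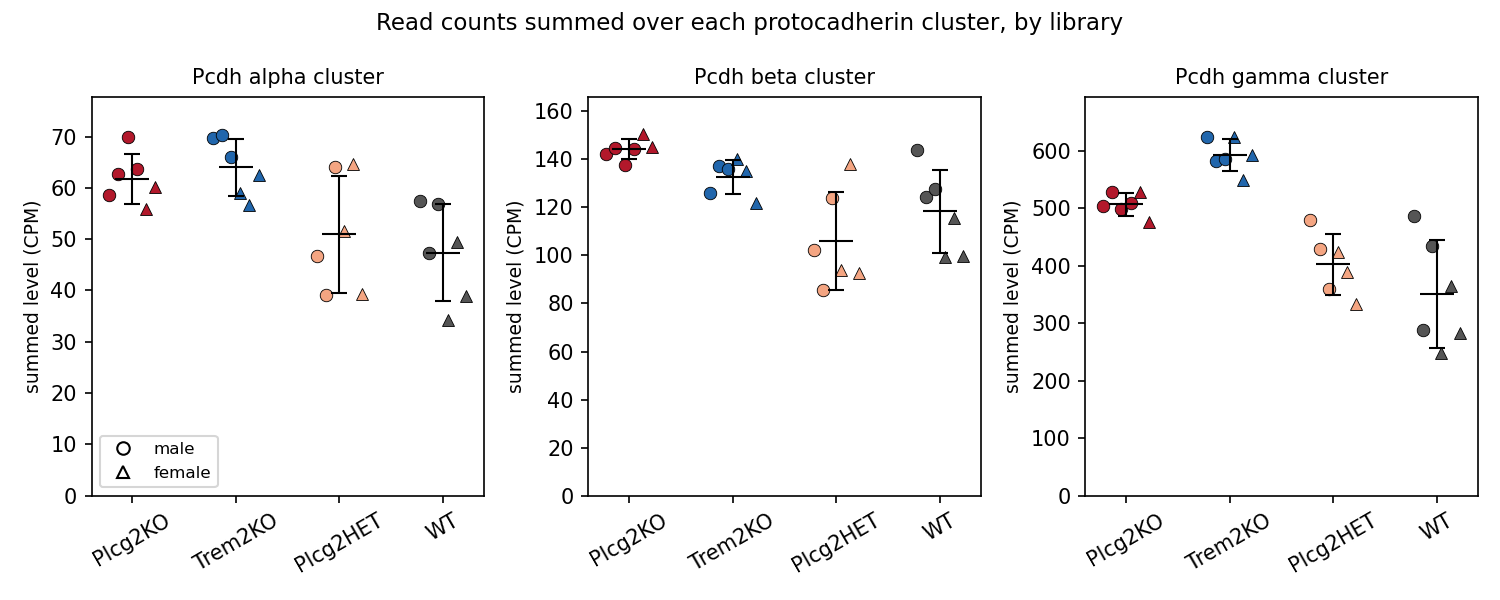
Counts summed over each cluster, in CPM, for every library (circles male, triangles female) with the mean and SD of each genotype. Gamma sums of the 6 Trem2KO libraries lie at 550 to 624 CPM, above all 6 WT libraries at 248 to 486 CPM, while the ranges of Plcg2KO and WT overlap.

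In Plcg2KO against WT, most gamma genes were called higher by read counts. Of 57 members tested, 22 were called higher and 1 lower at an adjusted p under 0.05 by edgeR's quasi-likelihood test, where 13.1% of all genes tested were called, 5.44% higher and 7.63% lower. By cluster, 17 of 22 gamma genes, 4 of 21 beta genes and 1 of 14 alpha genes were higher, and the gene called lower was Pcdhgb8 of the gamma cluster. Median log2 fold changes were 0.56 for gamma, 0.28 for beta and 0.32 for alpha genes, against -0.0035 for all genes tested. The alpha median includes Pcdha4, Pcdha6 and Pcdha7, whose read counts do not give their level. Over the 10 alpha genes with a mean CPM of at least 1 it was 0.43, with 1 called higher. The 4 gamma genes not called were Pcdhgb2, Pcdhga6, Pcdhgb4 and Pcdhga10. Ranges of the 2 genotypes did not overlap in 6 members, all higher in Plcg2KO, where 3.86% of all genes were higher without overlap.

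Pcdhga8 had the smallest p of the gamma genes. Its lowest, median and highest libraries were 13.0, 15.9 and 18.02 CPM in Plcg2KO against 7.32, 9.90 and 12.7 CPM in WT, without overlap (log2 fold change 0.64 ± 0.12 SE, adjusted p = 0.000706, edgeR). Pcdhga11 ran from 23.7 to 28.8 CPM with a median of 26.4 in Plcg2KO, and from 10.6 to 23.3 CPM with a median of 17.5 in WT (0.56 ± 0.12, adjusted p = 0.00267). These ranges did not overlap either. Both are A-type genes, which with the B-type genes make the variable, combinatorially used part of the gamma cluster.

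The 3 gamma C-type genes were called higher in Plcg2KO by read counts. Pcdhgc3 had lowest, median and highest values of 72.7, 80.1 and 91.5 CPM in Plcg2KO and 41.4, 51.9 and 74.7 CPM in WT (0.56 ± 0.12, adjusted p = 0.00186). Pcdhgc4, a member known from mouse knockouts to be needed for the survival of interneurons, had 9.57, 14.4 and 15.6 CPM in Plcg2KO and 4.72, 8.52 and 11.2 CPM in WT (0.66 ± 0.15, adjusted p = 0.00287). Pcdhgc5, a C-type gene that is most abundant in mature brain, had 128, 140 and 156 CPM in Plcg2KO and 62.5, 86.8 and 139 CPM in WT (0.53 ± 0.13, adjusted p = 0.00477). In all 3 the ranges overlapped at their edges.

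Among alpha and beta genes, few were called in Plcg2KO. Pcdhac2, which guides the spacing of serotonergic axons in mouse, had 24.9, 27.8 and 31.3 CPM in Plcg2KO and 16.9, 21.9 and 25.2 CPM in WT (0.37 ± 0.11, adjusted p = 0.0248). Pcdhac1, the other alpha C-type gene, was at 1.92, 3.17 and 3.74 CPM in Plcg2KO and 1.73, 2.40 and 3.18 CPM in WT, and was not called (0.21 ± 0.16, adjusted p = 0.439). Both pairs of ranges overlapped. The call of Pcdhac2 was lost in 5 of 24 fits that each left out 1 library (without Plcg2KO M2, M3 or F1, or WT F1 or F3), with adjusted p up to 0.0744.

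The beta genes called higher in Plcg2KO were Pcdhb2, Pcdhb10, Pcdhb11 and Pcdhb14. Pcdhb14 had lowest, median and highest values of 6.87, 10.1 and 10.9 CPM in Plcg2KO and 3.99, 6.36 and 8.19 CPM in WT (0.62 ± 0.15, adjusted p = 0.00793), with overlap through Plcg2KO M4. Pcdhb2 had 2.77, 3.22 and 4.13 CPM in Plcg2KO against 1.61, 2.02 and 2.69 CPM in WT, without overlap (0.67 ± 0.18, adjusted p = 0.0120). For Pcdhb10 the values were 4.39, 5.07 and 5.51 CPM in Plcg2KO and 2.67, 3.74 and 4.74 CPM in WT (0.46 ± 0.15, adjusted p = 0.0379), and its call was lost in 9 of 24 fits without 1 library (Plcg2KO M1, M2, M4, F1 or F2, or WT M2, F1, F2 or F3). Pcdhb9, the most abundant beta gene, had 19.4, 21.0 and 22.7 CPM in Plcg2KO and 15.2, 16.8 and 21.5 CPM in WT and was not called (0.25 ± 0.11, adjusted p = 0.124). Beta genes are short single-exon genes with no constant exons, so their proteins have their own cytoplasmic ends.

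Pcdhgb8 was the only member called lower in Plcg2KO against WT, and 6 others had a negative log2 fold change without a call. It was among the rarest gamma genes, with a median of 48 counts per library, and stood at 0.321, 0.545 and 1.01 CPM in Plcg2KO and 0.830, 0.973 and 1.22 CPM in WT (log2 fold change -0.81 ± 0.24, adjusted p = 0.0242). With expected counts it was also lower (-0.98 ± 0.22, adjusted p = 0.00425). The edges of the 2 ranges overlapped, and the call was lost in 5 of 24 fits without 1 library (Plcg2KO M1, F1 or F2, or WT M1 or F1).

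**Figure D3:**
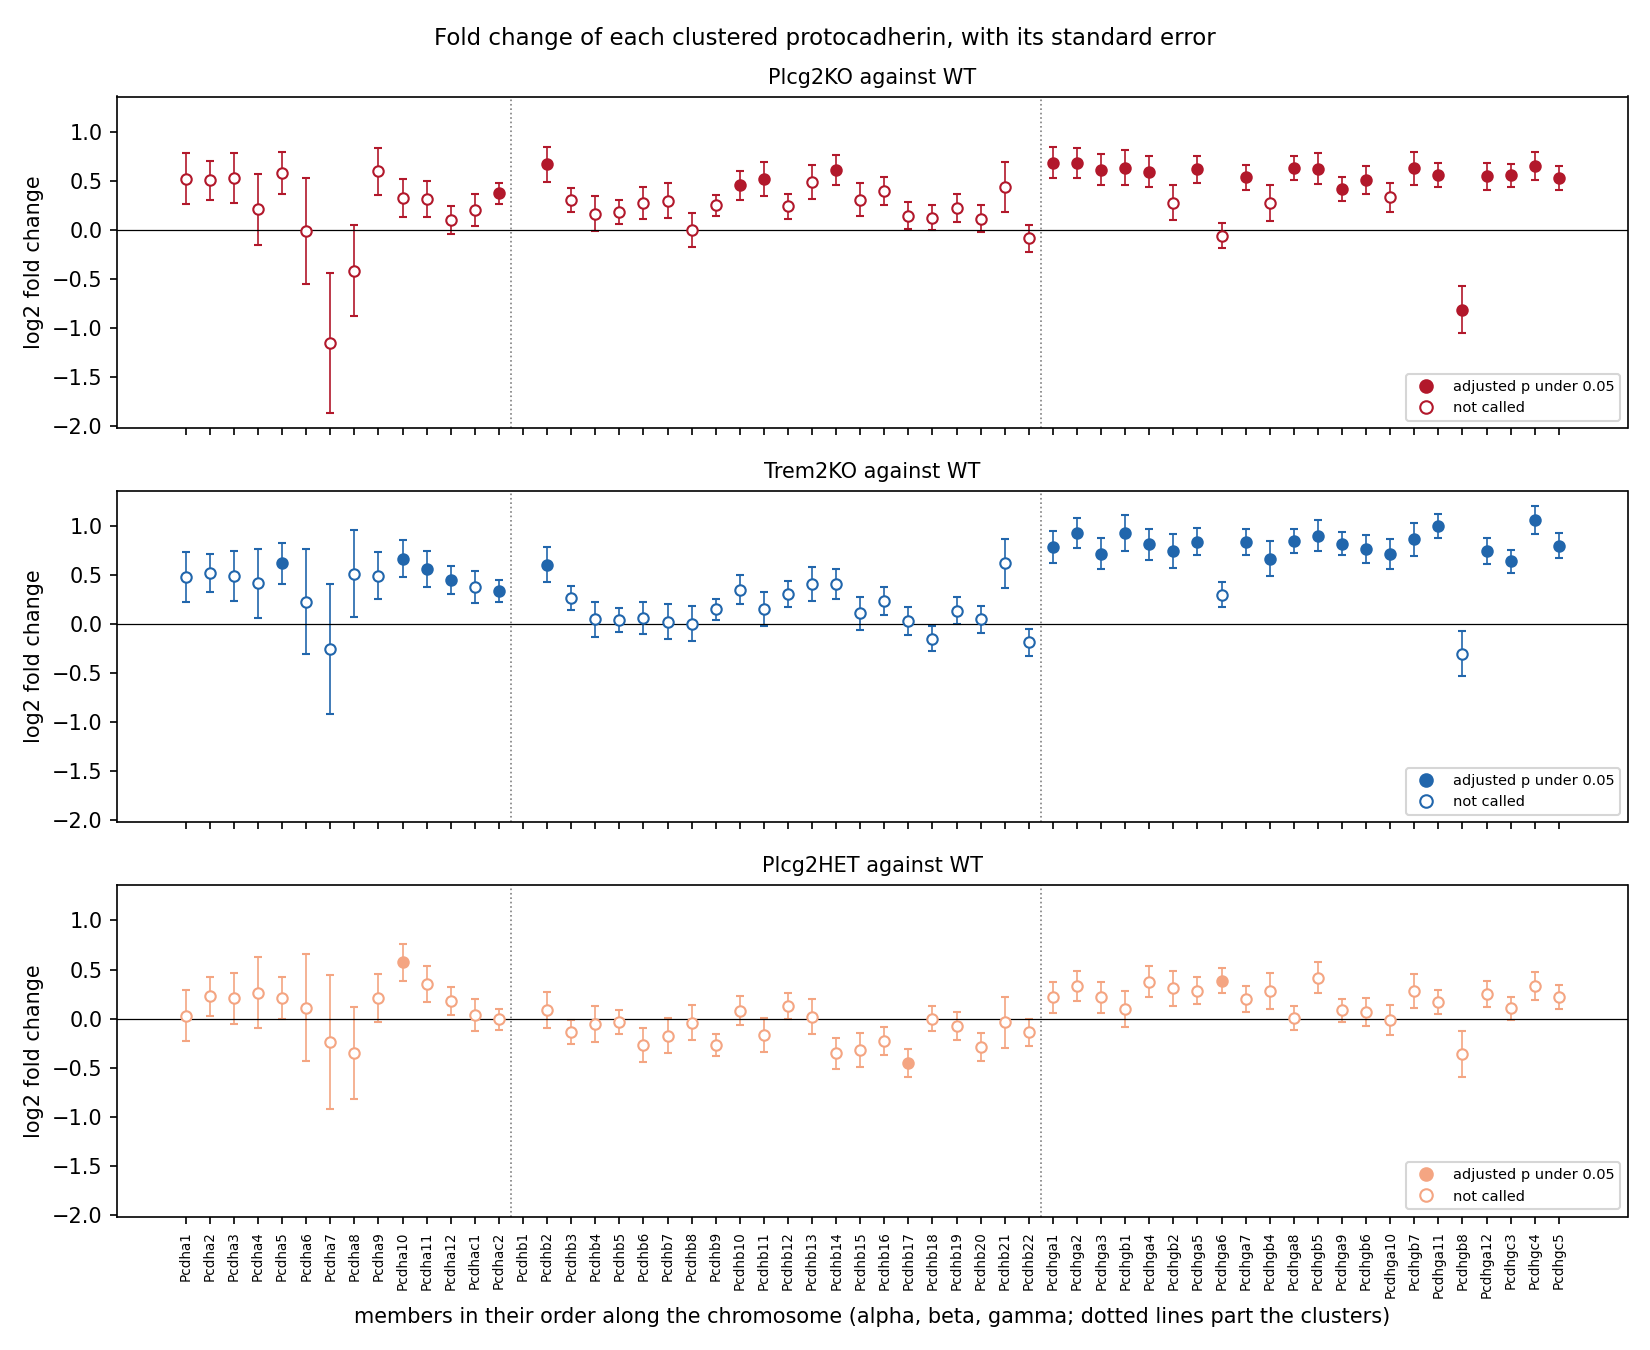
Log2 fold change of each tested member against WT with its standard error, in chromosome order, for Plcg2KO, Trem2KO and the libraries labelled Plcg2HET; filled points have an adjusted p under 0.05. Filled points crowd in the gamma cluster for Plcg2KO (17 higher, 1 lower) and Trem2KO (20 higher), and 3 of 57 members are filled for Plcg2HET.

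In Trem2KO against WT, nearly the whole gamma cluster was higher. Of 57 members 26 were called higher, where 15.7% of all genes tested were called in either direction and 7.56% were higher, and no member was called lower. The calls held 20 of 22 gamma genes, 5 of 14 alpha genes and 1 of 21 beta genes. Without the 3 libraries rich in Rn45s (Plcg2HET F1 and F3 and WT F1), 20 gamma genes, 1 beta gene and 0 alpha genes were called by edgeR, where 7 alpha genes had an unadjusted p under 0.05 and 11.1% of all genes were called. Fitted on Trem2KO and WT alone, 21 gamma, 10 of 13 alpha and 5 beta genes were called, with 29.9% of all genes called. Median log2 fold changes were 0.81 for gamma, 0.49 for alpha and 0.14 for beta genes, against -0.024 for all genes. Over the 10 alpha genes with a mean CPM of at least 1 the alpha median was 0.50. The gamma genes not called were Pcdhga6 and Pcdhgb8. In 15 members, 13 of them gamma genes, every Trem2KO library lay above every WT library, as did 5.8% of all genes tested.

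Pcdhga11 and Pcdhgc4 stood furthest above WT among the members named. Pcdhga11 had 33.9, 34.7 and 37.7 CPM (lowest, median, highest) in Trem2KO against 10.6, 17.5 and 23.3 CPM in WT (log2 fold change 1.0 ± 0.12 SE, adjusted p = 4.36e-06, edgeR). Pcdhgc4 had 15.9, 17.5 and 19.6 CPM in Trem2KO and 4.72, 8.52 and 11.2 CPM in WT (1.06 ± 0.15, adjusted p = 1.63e-05). Neither gene's ranges overlapped, and both calls held in 24 of 24 fits without 1 library.

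Pcdhga8 had 16.1, 17.5 and 21.1 CPM in Trem2KO and 7.32, 9.90 and 12.7 CPM in WT (0.85 ± 0.12, adjusted p = 3.39e-05). Pcdhgc5 had 150, 167 and 172 CPM in Trem2KO and 62.5, 86.8 and 139 CPM in WT (0.80 ± 0.13, adjusted p = 9.38e-05). Pcdhgc3 had 78.8, 83.9 and 89.8 CPM in Trem2KO and 41.4, 51.9 and 74.7 CPM in WT (0.64 ± 0.12, adjusted p = 0.000553). In all 3 the Trem2KO libraries lay above every WT library.

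The alpha genes called in Trem2KO were Pcdha5, Pcdha10, Pcdha11, Pcdha12 and Pcdhac2. Pcdha10 had 3.44, 4.07 and 4.62 CPM in Trem2KO and 1.34, 2.72 and 3.33 CPM in WT, without overlap (0.67 ± 0.19, adjusted p = 0.0171). Pcdha12 had 8.00, 9.39 and 9.94 CPM in Trem2KO and 4.86, 6.72 and 8.42 CPM in WT (0.45 ± 0.14, adjusted p = 0.0307), and its call was lost in 6 of 24 fits without 1 library (Trem2KO M1, M3 or F1, or WT M2, F1 or F3). Pcdhac2 had 24.01, 26.6 and 30.7 CPM in Trem2KO and 16.9, 21.9 and 25.2 CPM in WT (0.34 ± 0.11, adjusted p = 0.0341), and its call was lost in 7 of 24 (Trem2KO M1, M2, F1 or F3, or WT M2, F1 or F3). These 2 pairs of ranges overlapped.

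The beta gene called in Trem2KO was Pcdhb2, with 2.52, 2.97 and 4.44 CPM in Trem2KO and 1.61, 2.02 and 2.69 CPM in WT (0.61 ± 0.18, adjusted p = 0.0199). The ranges overlapped, and the call was lost without Trem2KO M3 or WT F1. Pcdhac1 had 2.79, 3.02 and 3.29 CPM in Trem2KO and 1.73, 2.40 and 3.18 CPM in WT and was not called (0.38 ± 0.16, adjusted p = 0.111).

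Set directly against Trem2KO, members were called less often in Plcg2KO than genes at large, while gamma log2 fold changes were below 0. All 22 gamma genes had a negative log2 fold change, with a median of -0.27 against 0.0043 for all genes. Of 57 members 2 were called, both lower, where 16.5% of all genes tested were called and 8.82% were lower. Both were gamma genes, 9.09% of that cluster and so near the all-gene share. Pcdhga11 had 23.7, 26.4 and 28.8 CPM in Plcg2KO and 33.9, 34.7 and 37.7 CPM in Trem2KO (-0.44 ± 0.12, adjusted p = 0.0208). Pcdhga9, another A-type gene, had 11.4, 13.7 and 14.6 CPM in Plcg2KO and 14.7, 17.1 and 21.0 CPM in Trem2KO (-0.40 ± 0.12, adjusted p = 0.0256), and its call was lost in 5 of 24 fits without 1 library (Plcg2KO M1 or M4, or Trem2KO M1, F1 or F3). Ranges did not overlap in these 2 genes nor in Pcdhga10 and Pcdhgc4, where 9.25% of all genes were lower without overlap. The comparison drew its spread from all 4 genotypes. Fitted on Plcg2KO and Trem2KO alone it called 15 members, where 42.1% of all genes tested were called: 11 gamma and 3 alpha genes were lower and 1 beta gene higher. With all genotypes, 1 member was called without Plcg2KO M1 or without Trem2KO M1, F1 or F3. The count was 4 without Plcg2HET F2, WT M2 or WT F1, 5 without Plcg2HET M3, and 6 without Plcg2HET M2 or F1.

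In the libraries labelled Plcg2HET, 3 of 57 members differed from WT, where 18% of all genes tested were called, and Plcg2 itself went against the label. Pcdha10 was higher, with 2.32, 3.39 and 6.11 CPM in the libraries labelled Plcg2HET and 1.34, 2.72 and 3.33 CPM in WT (0.57 ± 0.19, adjusted p = 0.0403). Pcdhga6 was higher, with 20.1, 33.7 and 36.3 CPM in the libraries labelled Plcg2HET and 15.9, 24.2 and 28.9 CPM in WT (0.38 ± 0.13, adjusted p = 0.0382). Pcdhb17 was lower, with 5.27, 6.63 and 10.2 CPM in the libraries labelled Plcg2HET and 6.84, 10.1 and 13.6 CPM in WT (-0.45 ± 0.14, adjusted p = 0.0274). All 3 pairs of ranges overlapped, as did those of every other member, where 1.92% of all genes were higher and 1.64% lower without overlap. Each of the 3 calls was lost in 6 or 7 of 24 fits that left out 1 library, Plcg2HET F1 being among them for all 3. The Pcdhga6 and Pcdha10 calls were also lost without WT M2, F1 or F3. The count of members called was 7 without Plcg2HET M3 and 5 without Plcg2HET F2. It was 1 without Plcg2HET M1, M2 or F3 or WT F1, and 0 without Plcg2HET F1 or WT M2, where 6 and 5 members had an unadjusted p under 0.05 in edgeR.

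Plcg2KO stood further from the libraries labelled Plcg2HET in the beta cluster. Of 57 members 23 were called higher and 1 lower, where 35.2% of all genes tested were called and 15% were higher. The beta cluster gave 13 of 21 tested genes, all higher, with a median log2 fold change of 0.47. Pcdhb14 had 6.87, 10.1 and 10.9 CPM in Plcg2KO and 3.27, 5.01 and 6.01 CPM in the libraries labelled Plcg2HET (0.97 ± 0.16, adjusted p = 5.96e-05). Pcdhb9 had 19.4, 21.0 and 22.7 CPM in Plcg2KO and 11.7, 14.2 and 18.4 CPM in the libraries labelled Plcg2HET (0.53 ± 0.11, adjusted p = 0.000805). Neither of these ranges overlapped, nor did those of Pcdhb16, at 5.59 to 6.64 CPM in Plcg2KO and 2.56 to 4.65 CPM in the libraries labelled Plcg2HET (0.63 ± 0.15, adjusted p = 0.00204).

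Of gamma genes, 9 of 22 were higher and Pcdhga6 was lower in Plcg2KO than in the libraries labelled Plcg2HET. Pcdhga8 had 13.0, 15.9 and 18.02 CPM in Plcg2KO and 8.29, 10.1 and 11.4 CPM in the libraries labelled Plcg2HET (0.64 ± 0.12, adjusted p = 0.000403), without overlap. Pcdhgc3 had 72.7, 80.1 and 91.5 CPM in Plcg2KO and 48.8, 57.5 and 68.7 CPM in the libraries labelled Plcg2HET (0.46 ± 0.12, adjusted p = 0.00442), also without overlap. Pcdhga6 had 17.4, 23.2 and 24.7 CPM in Plcg2KO and 20.1, 33.7 and 36.3 CPM in the libraries labelled Plcg2HET (-0.44 ± 0.13, adjusted p = 0.0102), with overlap. In 9 members, 4 beta and 5 gamma genes, every Plcg2KO library lay above every library labelled Plcg2HET, as did 4.87% of all genes. Of the alpha genes Pcdhac2 alone was called, with 24.9, 27.8 and 31.3 CPM in Plcg2KO and 16.7, 19.9 and 26.8 CPM in the libraries labelled Plcg2HET (0.38 ± 0.11, adjusted p = 0.00973), and its ranges overlapped.

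The expected counts gave smaller differences in the clusters that share exons. The gamma ratio of Plcg2KO to WT was 1.45 by read counts and 1.19 by expected counts, and that of Trem2KO to WT was 1.69 and 1.38. The alpha ratio of Plcg2KO to WT was 1.30 by read counts and 1.05 by expected counts, and for Trem2KO it was 1.35 and 0.973. Beta ratios stayed close, at 1.22 and 1.20 for Plcg2KO and at 1.12 and 1.11 for Trem2KO. The expected gamma sums of Trem2KO still lay above every WT library, at 1165 to 1263 against 689 to 1098 expected counts per 1000000. Expected over read counts for the gamma cluster ran from 1.86 to 1.99 in Plcg2KO and from 1.76 to 1.97 in Trem2KO, both below every WT library, at 2.06 to 2.60. In the alpha cluster the ratio averaged 3.16 ± 0.412 in Plcg2KO, 2.79 ± 0.220 in Trem2KO, 3.76 ± 0.571 in the libraries labelled Plcg2HET and 3.90 ± 0.585 in WT (SD, n = 6 each). In the beta cluster it averaged 0.899, 0.893, 0.893 and 0.890 in that order. The part of the shared exons in the differences was not tested beyond these values.

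**Figure D4:**
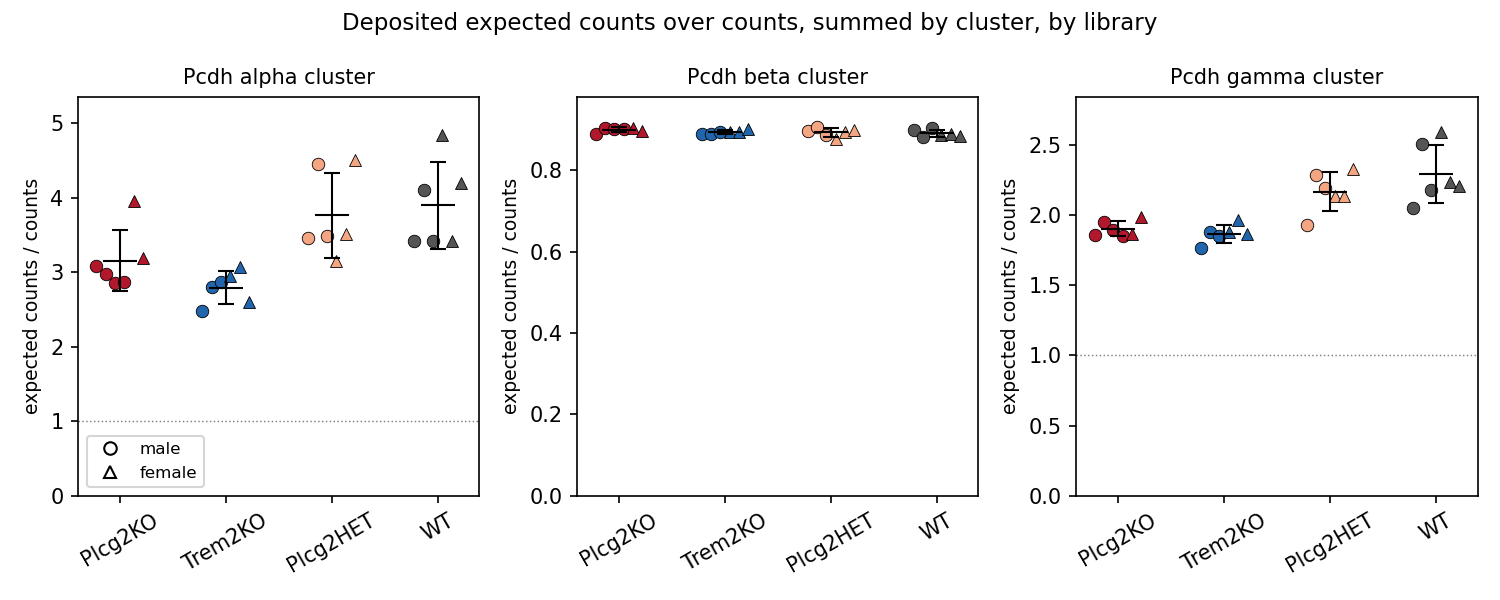
Expected counts over read counts, summed by cluster, for every library (circles male, triangles female) with the mean and SD of each genotype; the dotted line in the alpha and gamma panels marks equality. The beta ratio lies near 0.89 in every library, and the gamma ratio of Plcg2KO (1.86 to 1.99) and Trem2KO (1.76 to 1.97) lies below that of WT (2.06 to 2.60).

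Fitted on expected counts, 6 members were called in Plcg2KO against WT, with 10.7% of all genes called, and all 22 gamma genes had a lower log2 fold change than by read counts. The 6 were Pcdhb2, Pcdhb10, Pcdhb14, Pcdhga8 (0.33 ± 0.10, adjusted p = 0.0367) and Pcdhgc4 (0.44 ± 0.13, adjusted p = 0.0292), all higher, and Pcdhgb8, lower. Median log2 fold changes in that fit were 0.28 for gamma, 0.28 for beta and 0.040 for alpha genes. The gamma median thus did not exceed the beta median by expected counts. In Trem2KO against WT, 17 of 22 gamma genes were still higher, with 14.5% of all genes called and a gamma median of 0.50. Pcdhgc4 was at 0.83 ± 0.13 (adjusted p = 0.000133) and Pcdhga11 at 0.70 ± 0.11 (adjusted p = 7.43e-05) in that fit. None of the alpha genes called by read counts was called by expected counts in Trem2KO, where the alpha median was -0.024 and Pcdha7 was lower (-0.69 ± 0.23, adjusted p = 0.0443). In Plcg2KO against the libraries labelled Plcg2HET, 12 beta and 2 gamma genes were higher by expected counts and 1 gamma and 1 alpha gene lower, with 34.2% of all genes called.

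The GC content of the members was set beside the GC trends of the libraries. Its median was 47.7% in alpha, 46.6% in beta and 52.5% in gamma genes, against 50.8% over the genes tested. A GC value was at hand for 13 of 14 alpha genes and for 15693 of the 16316 genes tested. With offsets for GC content and length in the fit, 17 gamma genes were higher and 1 lower in Plcg2KO against WT, with 19.1% of all genes called and a gamma median of 0.59. Genes without a GC value stayed in that fit without such an offset. In Trem2KO against WT 20 gamma genes were higher in that fit, with 19.8% of all genes called and a gamma median of 0.74. Beta calls in Trem2KO were 8 of 21 in that fit, against 1 without the offsets, and alpha calls were 7 of 14, against 5. Beta calls in Plcg2KO against WT were 6, against 4. In Plcg2KO against the libraries labelled Plcg2HET 15 gamma genes were higher with the offsets, against 9 without, and 33.4% of all genes were called. Beta calls in that comparison were 10, against 13, with a median of 0.34, against 0.47. In Plcg2KO against Trem2KO 2 gamma genes were lower with and without the offsets. The gamma median there was -0.20, against -0.27, and 8.11% of all genes were called, against 16.5%.

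WT females had lower mean sums than WT males in every cluster, and the ranges of the sexes overlapped in alpha and gamma but not in beta. Gamma sums were 501 ± 37.1 and 510 ± 12.6 CPM in Plcg2KO females (n = 2) and males (n = 4). They were 589 ± 37.3 and 597 ± 23.6 CPM in Trem2KO females and males, and 298 ± 59.7 and 403 ± 103 CPM in WT females and males (SD, n = 3 each). Fitted in females alone, 18 members were called in Plcg2KO (6.1% of all genes) and 22 in Trem2KO (5.81%). Fitted in males alone, 3 were called in Trem2KO (0.44% of all genes) and 0 in Plcg2KO (2.25%), where 10 members had an unadjusted p under 0.05. Tested directly in edgeR, the effect of genotype differed between sexes in 0 members for each of the 3 comparisons with WT, with 11 (Plcg2KO), 7 (Trem2KO) and 13 (Plcg2HET) members at an unadjusted p under 0.05. Over all 16316 genes 0 were called in each, and 7.79%, 2.91% and 5.44% of them had an unadjusted p under 0.05. The median female minus male difference over the members was 0.44, 0.37 and 0.35 on the log2 scale, against -0.0032, 0.0025 and 0.027 over all genes. The lowest adjusted p of a member was 0.636, and DESeq2 also called 0 members.

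Genes that act on the clusters were also read. Calls in this list, the lists below and the markers stand beside the share of all genes called. Against WT that share was 13.1% in Plcg2KO, 15.7% in Trem2KO and 18% in the libraries labelled Plcg2HET. It was 16.5% for Plcg2KO against Trem2KO and 35.2% for Plcg2KO against the libraries labelled Plcg2HET. The list of 20 chromatin regulators held 2 genes that rose in Plcg2KO against WT: Smc3, a cohesin subunit (0.41 ± 0.12, adjusted p = 0.0170), and Nipbl, the cohesin loader (0.38 ± 0.11, adjusted p = 0.0234). In Trem2KO 1 rose, the DNA methyltransferase Dnmt1 (0.43 ± 0.10, adjusted p = 0.00381), and 2 fell, among them Ezh2, a histone methyltransferase (-0.58 ± 0.12, adjusted p = 0.00209). In the libraries labelled Plcg2HET 2 rose, Dnmt1 (0.44 ± 0.10, adjusted p = 0.00320) and Wiz, a zinc finger protein (0.45 ± 0.13, adjusted p = 0.0156). List medians were 0.13 in Plcg2KO, -0.036 in Trem2KO and 0.10 in the libraries labelled Plcg2HET. In Plcg2KO against Trem2KO 5 rose and 1 fell, and in Plcg2KO against the libraries labelled Plcg2HET 2 rose and 2 fell.

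Of 25 signalling and proteolysis partners, such as focal adhesion kinases, the WAVE complex and gamma-secretase, 1 rose in Plcg2KO against WT and 6 rose in Trem2KO. Among all genes tested, 13.1% and 15.7% were called in these 2 comparisons. Cyfip2, a WAVE complex subunit that links to protocadherin tails, was higher in Plcg2KO (0.37 ± 0.10, adjusted p = 0.00949) and in Trem2KO (0.47 ± 0.09, adjusted p = 0.00141). Ptk2b, the kinase PYK2 that binds alpha and gamma tails, was higher in Trem2KO (0.45 ± 0.11, adjusted p = 0.00781). In the libraries labelled Plcg2HET 3 rose and 3 fell. Pdcd10, an adaptor that binds gamma tails, was lower there (-0.44 ± 0.08, adjusted p = 0.00125). List medians were 0.10, 0.00092 and 0.067 in these 3 comparisons. In Plcg2KO against Trem2KO 2 rose and 2 fell, and in Plcg2KO against the libraries labelled Plcg2HET 4 rose and 3 fell.

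Among 12 protocadherins outside the clusters, 1 rose in Plcg2KO against WT, 2 rose in Trem2KO, and 2 rose and 3 fell in the libraries labelled Plcg2HET. The all-gene shares were 13.1%, 15.7% and 18% in these 3 comparisons. Pcdh1 was higher in Plcg2KO (0.70 ± 0.18, adjusted p = 0.00977) and in Trem2KO (1.15 ± 0.18, adjusted p = 0.000119). Pcdh8, an adhesion protein of synapses, was higher in Trem2KO (0.55 ± 0.13, adjusted p = 0.00524) and in the libraries labelled Plcg2HET (0.55 ± 0.13, adjusted p = 0.00565). Pcdh11x was lower in the libraries labelled Plcg2HET (-0.51 ± 0.12, adjusted p = 0.00457). Their medians were 0.20, -0.022 and -0.29 in the 3 comparisons. In Plcg2KO 2 rose against Trem2KO and 7 rose against the libraries labelled Plcg2HET, where 16.5% and 35.2% of all genes were called. Of 23 other cadherin superfamily genes, 3 rose and 1 fell in Plcg2KO, 7 rose in Trem2KO, and 2 rose and 1 fell in the libraries labelled Plcg2HET. Celsr3, an atypical cadherin of axon guidance, fell in Plcg2KO (-0.83 ± 0.14, adjusted p = 0.000136), and Cdh2, N-cadherin, rose (0.48 ± 0.10, adjusted p = 0.00187). In Trem2KO Fat1, a giant cadherin, rose (0.63 ± 0.13, adjusted p = 0.00131), as did Cdh1, E-cadherin (0.70 ± 0.18, adjusted p = 0.0102). Cdh13 was higher in the libraries labelled Plcg2HET (0.58 ± 0.12, adjusted p = 0.00265) and Cdh9 lower (-0.47 ± 0.14, adjusted p = 0.0190). In Plcg2KO 1 rose and 5 fell against Trem2KO, and 12 rose and 2 fell against the libraries labelled Plcg2HET.

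Genes that flank the clusters were mixed in direction. Of 17 tested, 2 rose and 3 fell in Plcg2KO and likewise 2 rose and 3 fell in Trem2KO, with medians of -0.085 and -0.049. The all-gene shares called were 13.1% and 15.7%. For the libraries labelled Plcg2HET 0 were called by edgeR, where 3 had an unadjusted p under 0.05, and 1 by DESeq2. The flanking gene with the smallest p was Cd14, a receptor of innate immune cells, at -1.92 ± 0.21 in Plcg2KO (adjusted p = 2.42e-07) and -1.36 ± 0.20 in Trem2KO (adjusted p = 3.39e-05). In Plcg2KO 1 rose and 3 fell against Trem2KO, and 5 fell against the libraries labelled Plcg2HET.

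Cell type markers moved with some of these comparisons. Microglial markers fell in Plcg2KO (5 of 6 genes) and Trem2KO (4 of 6), with summed levels of 444 to 680 CPM in Plcg2KO, 542 to 726 CPM in Trem2KO, 780 to 1352 CPM in the libraries labelled Plcg2HET and 760 to 1248 CPM in WT. Meningeal fibroblast markers rose in Plcg2KO (4 of 5), Trem2KO (4 of 5) and the libraries labelled Plcg2HET (3 of 5), with sums of 78.8 to 89.7, 88.1 to 110, 65.8 to 122 and 54.5 to 73.6 CPM in Plcg2KO, Trem2KO, Plcg2HET and WT. Endothelial markers fell in Plcg2KO (3 of 4), at 44.1 to 63.9 CPM against 58.2 to 114 CPM in WT.

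Neuronal markers, those of the cells best known for these genes, overlapped between all genotypes. Excitatory markers summed to 6508 to 8164 CPM in Plcg2KO, 7437 to 7859 in Trem2KO, 7213 to 9703 in the libraries labelled Plcg2HET and 6101 to 7897 in WT. Inhibitory markers summed to 966 to 1106, 881 to 977, 674 to 1060 and 707 to 979 CPM in that order. Their medians were 1022, 930, 774 and 817 CPM, so the Plcg2KO and WT ranges overlapped only at their edges. By edgeR, 0 of 6 excitatory markers were called in Plcg2KO, where 3 had an unadjusted p under 0.05 and DESeq2 called 2, and 1 was higher and 1 lower in Trem2KO. Of 6 inhibitory markers 1 rose in Plcg2KO and 1 in Trem2KO. Among 6 astrocyte, 6 oligodendrocyte, 4 precursor and 4 choroid plexus markers, at most 1 was called in each direction in Plcg2KO and in Trem2KO. Precursor sums were 107 to 118 CPM in Trem2KO, above the WT range of 84.8 to 106 CPM, and 100 to 116 CPM in Plcg2KO. In the libraries labelled Plcg2HET, 2 astrocyte markers were higher and 2 oligodendrocyte markers lower. Of all marker genes, 0 were at 0 counts throughout. In bulk cortex, a change in the number of cells of a type and a change in RNA per cell cannot be told apart, and the part of these shifts in the protocadherin values was not tested.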

How the data were processed

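The authors deposited whole-number read counts per gene with exon coordinates, per the file headers, and expected counts, TPM and FPKM per library in a further table, per the file headers. RNA was total RNA made into libraries with an mRNA kit, per the labels' protocols. Alignment and counting tools listed in the submitters' processing notes are STAR 2.7.10a and featureCounts 2.0.3, with genome build mm10. The tool behind the expected counts, the strand setting and the treatment of reads on shared exons are unknown here, as no source used states them. TPM and FPKM were not used.

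Counts were tested with edgeR 4.0.16 in R 4.3.3: filterByExpr (minimum count 10 by genotype), TMM, and a robust quasi-likelihood fit of the 24 libraries on genotype plus sex. P-values were adjusted by the Benjamini-Hochberg method over 16316 genes, and genes with an adjusted p under 0.05 were called. Libraries stand for separate mice, and no 2 held identical counts. CPM values were scaled by TMM. Own bases of a gene are exon bases that no other annotated gene of the count table covers. Fold changes are log2, with standard errors. The fit was tested on simulated data.

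Members and lists were chosen with earlier results of these data known. The members named are the C-type genes, the highest per own kilobase in each cluster, and the 3 called with the smallest p per cluster and comparison. Of each gene list outside the clusters, the 2 called genes with the smallest p qualified, and 1 of these is not reported here. Wapl and Diaph1 were matched as Wapal and Diap1, and Dchs2 was not matched. Alternatives were RLE scaling, other filters, no sex term, each sex alone, only the 2 genotypes compared, a replicate block, DESeq2 1.42.0, expected counts rounded to whole numbers, offsets for GC content and length, omission of 3 libraries with over 5% Rn45s, and each library left out.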

Additional observations from a re-analysis of the deposited data

Results flagged for a closer look

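In 3 of 80 sets of 6 libraries examined, 1 library stood apart from the other 5 by Dixon's test, and chance flags about 1 in 20. The lowest Plcg2KO value of Pcdhb14 was 6.87 CPM in M4, and the highest Plcg2KO value of Pcdhb16 was 6.64 CPM in the same library. The lowest Plcg2KO value of Pcdhgc4 was 9.57 CPM in F1.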

How the results depend on the processing

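Of 1764 alternative values for 49 fold changes of named members, 1590 kept direction and call, 117 lost the call, 33 gained one and 24 changed sign. In Plcg2KO against WT the count of 23 members fell to 0 in males alone and 6 with expected counts. Of all genes, 13.1% were called in the full fit, and 2.25% and 10.7% in these 2. Leaving out 1 library gave 16 to 25 members. In Trem2KO against WT the count of 26 fell to 3 in males alone, with 15.7% and 0.44% of all genes called in these fits. Leaving out 1 library gave 21 to 30 members. In Plcg2HET against WT the count of 3 became 0 in males alone, with only the 2 genotypes and without the libraries rich in Rn45s, where 6, 4 and 3 members had an unadjusted p under 0.05 in edgeR. Of all genes, 18% were called in the full fit, and 0.031%, 4.68% and 4.89% in these 3. The member count was 1 in females alone and with expected counts (2.53% and 17.7% of all genes), and 0 to 7 without 1 library. In Plcg2KO against Trem2KO the count of 2 became 0 in males and in females alone (7 and 5 at an unadjusted p under 0.05), 4 with a mean CPM of at least 1 and with expected counts, 15 with only the 2 genotypes, 6 without the libraries rich in Rn45s, 5 with DESeq2 and 1 to 6 without 1 library. All-gene shares were 16.5% in the full fit, 21.3% with the CPM minimum, 15.2% with expected counts, 42.1% with 2 genotypes, 19.1% without those libraries, 21.8% with DESeq2, and under 0.1% in single sexes. In Plcg2KO against Plcg2HET the count of 24 became 10 in males alone, 2 in females alone and 12 without the libraries rich in Rn45s, and 16 to 30 without 1 library. Of all genes, 35.2% were called there in the full fit, and 9.65%, 10.05% and 18.9% in these 3. The sex comparison gave 0 to 0 throughout. For all of these the cause was not tested. Fits on single sexes and on 2 genotypes hold fewer samples. With only the 2 genotypes, 30 members were called in Plcg2KO against WT, 36 in Trem2KO against WT and 23 in Plcg2KO against Plcg2HET. Of all genes, 22.3%, 29.9% and 22.1% were called in these fits. All-gene shares of the fits without 1 library are not given here.

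With the replicate code as a block, counts were 19, 26, 3, 1 and 19 in the same order of comparisons. Of all genes, 9.696%, 13.47%, 14.79%, 6.576% and 28.67% were called with the block, in that order. Over 33 same-coded pairs r ran from -0.19 to 0.376 (median 0.128), with 20 over 0.1, and over 183 pairs with different codes the median was -0.016, with 36 over 0.1. Not every same-coded pair was over 0.1, and 8 of 24 libraries correlated best with their own code. A code also fixes the sex, and the values correlated kept differences of sex. The check therefore cannot tell pairing from sex, and the codes were not taken to pair the mice.

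Sign changes concerned 3 C-type genes. One was a call, Pcdhac2 in Trem2KO against WT (0.34, and -0.062 with expected counts). For Pcdhac1, Plcg2HET against WT gave -0.14 in males alone, -0.068 with expected counts and -0.13 (without Plcg2HET F2) to 0.14 without 1 library, also below 0 without WT F1. Plcg2KO against Plcg2HET gave -0.24 in females alone and -0.032 with expected counts, Plcg2KO against Trem2KO 0.088 in males alone, and expected counts -0.10 for Plcg2KO and -0.081 for Trem2KO against WT (0.21 and 0.38 with read counts). For Pcdhac2, Plcg2HET against WT gave 0.15 in females alone, 0.0052 with only the 2 genotypes and 0.014 without the libraries rich in Rn45s and -0.091 to 0.043 over the fits without 1 library, against -0.0095 in the full fit. Plcg2KO against Trem2KO gave -0.029 in males alone, -0.0086 with GC and length offsets and -0.0073 to 0.071 without 1 library, the lowest without Plcg2KO F1. For Pcdhgc3, GC and length offsets gave -0.0096 in Plcg2HET against WT and 0.062 in Plcg2KO against Trem2KO. Of the cluster sums, 9 of 12 moved with expected counts and 0 of 12 with RLE scaling or library totals. Low counts limit Pcdha8 and Pcdhgb8. The 3 alpha genes without own bases are limited because their read counts do not give their level.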
